A study of Homo sapiens with 4 samples.

Results

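The 9 genes described here, C9orf72, VCP, GRN, TBK1, OPTN, SQSTM1, ATXN2, TMEM106B and NEK1, are genes in which variants cause or modify the risk of amyotrophic lateral sclerosis (ALS) or frontotemporal dementia (FTD). They were taken by gene symbol from 77973 genes in a long-read RNA data set, and each of the 9 matched 1 gene identifier. The cells were neurons that pluripotent stem cells of the KOLF2.1J line, a human induced pluripotent stem cell line, form when doxycycline switches on the transcription factor NGN2. All groups carried that inducible NGN2 and a constitutive dCas9-BFP-KRAB repressor (CRISPR interference), and all were stable pools selected with puromycin after a lentivirus had delivered a guide RNA. The control library had a non-targeting guide and no drug, and the knockdown library a guide against TDP-43, the RNA-binding protein encoded by TARDBP. The azacytidine library came from cells kept for 72 hours in 5 µM 5-azacytidine, a drug that lowers DNA methylation. The combined library had that drug and the TDP-43 guide. There was 1 library per group, and the day of harvest of these cultures is not given in the sources used here.

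Most of the 9 proteins act on the route by which cells deliver damaged proteins and organelles to the lysosome. The receptors p62 (SQSTM1) and optineurin (OPTN) tie ubiquitin-tagged cargo to the growing autophagosome membrane, the kinase TBK1 phosphorylates both, and the ATPase VCP pulls ubiquitinated proteins out of complexes and membranes. C9orf72 forms a complex with SMCR8 and WDR41 that acts on autophagy and lysosomes. Progranulin (GRN) and TMEM106B are lysosomal proteins. ATXN2 binds RNA and enters stress granules, and NEK1 is a kinase of cilia and the DNA damage response.

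Where transcription starts matters for a pair of these genes, so their start windows are printed here. Each window holds 250 bases before and 50 after a start site (RefSeq, GRCh38.p14), and 8 of the 9 genes matched the table, with 12 windows. C9orf72 has 2 windows, both on the minus strand. The window of exon 1b, chr9:27573432-27573731, holds the GGGGCC repeat whose expansion causes ALS and FTD. The reference has 3 units in a row, in capitals, and the run ends 47 bases before the start site at 27573481. The window of exon 1a, chr9:27573817-27574116, starts transcription at 27573866, upstream of the repeat, and its capitals mark the transcribed bases.
C9orf72 exon 1b: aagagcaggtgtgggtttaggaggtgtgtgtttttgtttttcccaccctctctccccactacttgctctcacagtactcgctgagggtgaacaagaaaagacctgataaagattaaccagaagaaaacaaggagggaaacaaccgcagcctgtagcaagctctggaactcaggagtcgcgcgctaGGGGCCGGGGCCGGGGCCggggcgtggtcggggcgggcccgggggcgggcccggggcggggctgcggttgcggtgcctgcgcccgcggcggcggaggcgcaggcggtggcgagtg
C9orf72 exon 1a: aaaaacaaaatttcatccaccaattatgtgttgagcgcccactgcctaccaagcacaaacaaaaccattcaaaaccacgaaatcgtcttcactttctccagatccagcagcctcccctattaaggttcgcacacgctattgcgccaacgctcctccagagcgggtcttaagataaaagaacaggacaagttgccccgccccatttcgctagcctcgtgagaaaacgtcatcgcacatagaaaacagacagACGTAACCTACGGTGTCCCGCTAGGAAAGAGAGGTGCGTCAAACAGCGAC
A run of 3 GGGGCC units on either strand was present in 10 of 35116 windows (0.0285%), while a single GGGGCC was present in 36.2% of them. The 3 windows of SQSTM1 are on the plus strand, at chr5:179806143-179806442, chr5:179806759-179807058 and chr5:179820655-179820954. They are shown because SQSTM1 transcripts given reads in these neurons have first exons at several of these places, and capitals again mark the transcribed bases.
SQSTM1 start 179806393: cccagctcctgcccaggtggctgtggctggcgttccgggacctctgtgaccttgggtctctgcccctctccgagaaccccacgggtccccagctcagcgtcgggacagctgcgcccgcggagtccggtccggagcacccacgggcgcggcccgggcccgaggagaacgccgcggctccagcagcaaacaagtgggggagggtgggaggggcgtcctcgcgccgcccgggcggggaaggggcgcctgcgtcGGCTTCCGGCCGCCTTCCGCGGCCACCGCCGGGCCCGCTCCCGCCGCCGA
SQSTM1 start 179807009: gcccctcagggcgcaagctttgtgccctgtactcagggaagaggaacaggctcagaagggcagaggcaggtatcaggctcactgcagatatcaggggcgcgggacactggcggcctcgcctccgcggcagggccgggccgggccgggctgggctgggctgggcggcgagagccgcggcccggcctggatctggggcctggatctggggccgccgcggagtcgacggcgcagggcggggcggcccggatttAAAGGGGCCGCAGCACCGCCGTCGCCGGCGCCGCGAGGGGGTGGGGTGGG
SQSTM1 start 179820905: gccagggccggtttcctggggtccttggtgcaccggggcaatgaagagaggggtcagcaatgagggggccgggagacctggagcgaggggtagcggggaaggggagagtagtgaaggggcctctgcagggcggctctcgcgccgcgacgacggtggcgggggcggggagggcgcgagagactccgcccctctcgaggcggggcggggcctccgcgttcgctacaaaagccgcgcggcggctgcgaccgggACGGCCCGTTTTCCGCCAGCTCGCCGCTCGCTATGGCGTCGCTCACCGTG
The SQSTM1 windows hold 38, 32 and 38 CpG dinucleotides, the bases that DNA methylation marks, and the C9orf72 windows 25 (exon 1b) and 18 (exon 1a). The median of all windows is 14.

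The libraries held 595158 (control), 767621 (knockdown), 466337 (azacytidine) and 477622 (combined) reads assigned to genes. TARDBP, the target of the guide, had 104, 72, 73 and 43 reads in that order. Its log2 ratio was -0.67 for knockdown against control (adjusted p = 0.017, exact binomial test) and -0.73 for combined against azacytidine (adjusted p = 0.0573). All 16 neuron markers were detected in every library, with 4259, 5164, 5053 and 4320 CPM in sum. Single neuron markers changed in either direction. MAP2 had 540, 761, 319 and 162 reads and NEFL 343, 360, 250 and 114. RBFOX3 (35, 39, 90 and 131) was called higher in both azacytidine pairs, and ELAVL4 (89, 256, 63 and 164) in both knockdown pairs. Markers of dividing cells fell with azacytidine: 12 genes held 884 and 1002 reads in the control and knockdown libraries and 81 and 71 in the drug-treated ones, and 10 of the 10 tested were called lower in both azacytidine pairs. Pluripotency markers summed to 318, 387, 170 and 217 reads. LIN28A (129, 200, 99 and 121 reads), DNMT3B (77, 90, 30 and 66), DPPA4 (48, 40, 6 and 10) and PODXL (39, 42, 16 and 20) were detected in every library, while POU5F1 and NANOG had 2 reads or fewer in each. Markers of glia and microglia summed to 105, 89, 38 and 27, and AQP4, MOG, AIF1 and TREM2 were at 0 in all 4. The part of these markers in the results below was not tested. In bulk RNA, fewer cells of a type and less RNA per cell cannot be told apart.

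Levels are given as reads and as CPM, the reads scaled to the effective size of each library, with 95% exact Poisson intervals that cover counting error only. For each pair of libraries, an exact binomial test (two-sided, Benjamini-Hochberg adjusted) was run on all 8145 genes whose mean reached 20 reads. It sets the reads of 1 library against those of another and does not carry the spread between cultures of a condition. A gene was called where the adjusted p was under 0.05 and the change at least 2-fold. Of the 9 genes 8 were tested, and GRN was below the minimum.

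Knockdown against control gave 1 call among the 8, SQSTM1, which was lower. Calls made up 8.34% of all tested genes there, and calls lower 2.15%. Combined against azacytidine gave 0 calls, against 8.45% of all genes, with 0 of the 8 at an adjusted p under 0.05 (15% of all genes) and VCP alone under 0.05 unadjusted (p = 0.0257, exact binomial test). Azacytidine against control gave 1 call, TBK1, which was lower (16.6% of all genes called, 9.93% lower). Combined against knockdown gave 1 call, SQSTM1, which was higher (26.4% of all genes called, 9.56% higher). No member was called in the same direction in both knockdown pairs (0.97% of all genes) or both azacytidine pairs (9.8% of all genes). A count of 1 in 8 is near or below the background share, in either direction, in these pairs. The median log2 ratio of the 8 genes was -0.33, 0.08, -0.12 and -0.37 in these 4 pairs, beside 0.18, 0.05, 0.05 and -0.09 for all tested genes. The control library enters knockdown against control and azacytidine against control, and the knockdown library enters knockdown against control and combined against knockdown.

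**Figure D1:**
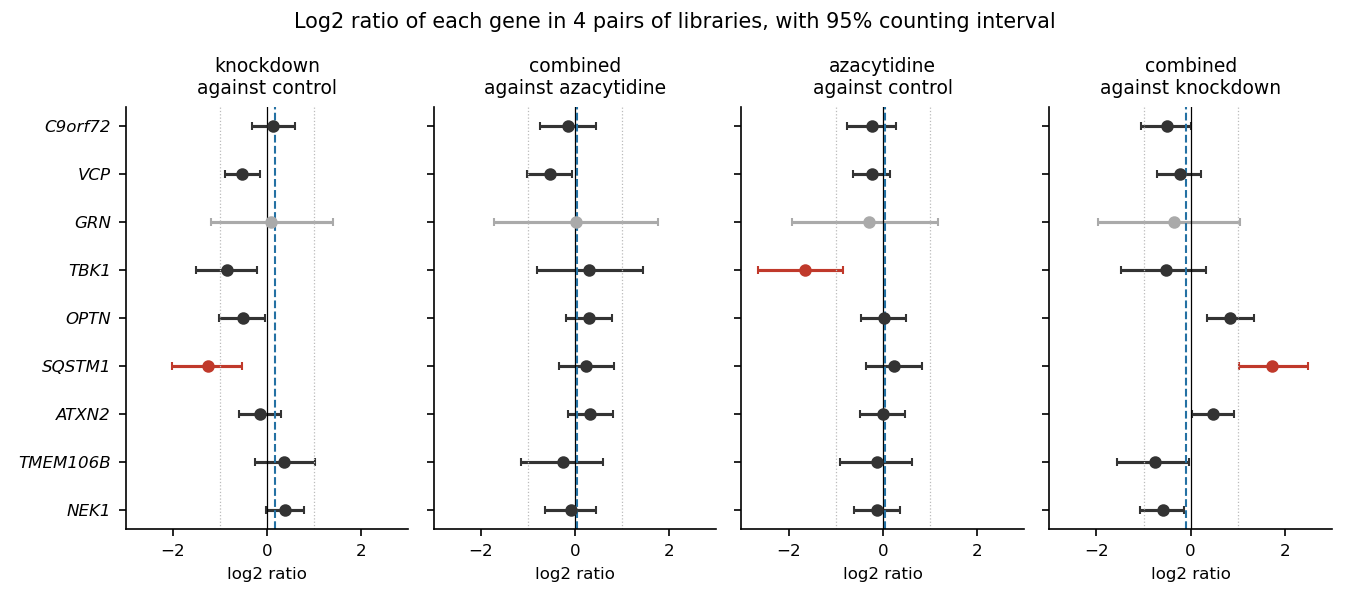
Log2 ratio (horizontal axis) of each of the 9 genes in 4 pairs of libraries, with 95% exact intervals from the read counts. Red marks a call, grey GRN, which was not tested, the dashed line the median of all tested genes and the dotted lines a 2-fold change. SQSTM1 lies at -1.24 for knockdown against control and at 1.73 for combined against knockdown, and TBK1 at -1.66 for azacytidine against control.

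SQSTM1 (chromosome 5, 179806373 to 179838078, plus strand) was low in 1 library. Control neurons gave 52 reads, knockdown neurons 24, azacytidine-treated neurons 49 and neurons with both 57, or 83.9, 35.0, 99.2 and 118 CPM. The interval of the knockdown library, 22.4 to 52.1, lay below those of the other 3 libraries, which overlapped one another. The log2 ratio of knockdown to control was -1.24 (95% interval -2.02 to -0.54, adjusted p = 0.00328, exact binomial test), a level at 42.2% of the control. With azacytidine in both libraries the ratio was 0.24 (-0.33 to 0.83, adjusted p = 0.643, exact binomial test). The drop with the guide was therefore seen without azacytidine and not with it, and the difference between the ratios was 1.49 (adjusted p = 0.013, exact conditional test over all 8145 genes). Differences past that threshold made up 10.6% of all genes, and SQSTM1 was the only one of the 8 members among them. Over reads that matched a transcript (32, 13, 29 and 39), a setting chosen after seeing the data, knockdown against control gave -1.36 (adjusted p = 0.0542, exact binomial test) and was no longer called. It was -0.63 over uniquely assigned reads and -0.77 over full-length reads, both with too few reads to test. Combined against knockdown, which uses the same low library, gave 1.73 (1.04 to 2.50, adjusted p = 1.61e-06, exact binomial test), while azacytidine against control gave 0.24 (adjusted p = 0.618, exact binomial test).

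The gene SQSTM1 overlaps 2 genes on the opposite strand at its ends, MGAT4B (24, 30, 23 and 31 reads) and MRNIP (14, 29, 21 and 30 reads). Strand use in the counting is not given in the sources used here, so reads in the shared bases could have been assigned either way. Both neighbours had more reads in the knockdown than in the control library, and the part of the shared bases in the SQSTM1 count was not tested.

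TBK1 (chromosome 12, 64452090 to 64502114, plus strand), the kinase of the autophagy receptors, was highest in the control. In the order used above (control, knockdown, azacytidine, combined) it had 57, 35, 14 and 17 reads, or 91.9, 51.1, 28.3 and 35.1 CPM. The intervals of both drug-treated libraries (15.5 to 47.5 and 20.4 to 56.2) lay below that of the control (69.6 to 119). The log2 ratio was -1.66 for azacytidine against control (-2.66 to -0.84, adjusted p = 0.000223, exact binomial test) and -0.84 for knockdown against control (-1.50 to -0.22, adjusted p = 0.0353, exact binomial test), the second short of a 2-fold change (scaled by total counts it was -1.06 and called). Azacytidine against control was -0.83 over uniquely assigned reads and -0.80 over full-length reads, both with too few reads to test. Combined against knockdown gave -0.52 (adjusted p = 0.324) and combined against azacytidine 0.30 (adjusted p = 0.808), both by exact binomial tests.

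The larger TBK1 count of the control lay in reads that matched no transcript. Of the 57 control reads, 41 (71.9%) were assigned to the gene and to none of its transcripts, against 5 of 35 in the knockdown, 0 of 14 in the azacytidine and 2 of 17 in the combined library. For the 0 of 14, a Wilson interval reached up to 21.5%. Reads that matched a TBK1 transcript numbered 16, 30, 14 and 15. Over those reads alone, a comparison chosen after seeing the data, the log2 ratio of azacytidine to control was 0.02 and that of knockdown to control 0.79, neither tested because their mean lay under the minimum. In the whole control library 36.1% of reads matched no transcript, and the median over genes with at least 10 reads was 29.03%.

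OPTN (chromosome 10, 13099449 to 13138308, plus strand), the optineurin gene, had 83, 64, 67 and 81 reads, or 134, 93.4, 136 and 167 CPM. It was lowest in the knockdown and highest in the combined library, and the intervals of these 2 (71.9 to 119 and 133 to 208) did not overlap. Combined against knockdown gave a log2 ratio of 0.84 (0.35 to 1.34, adjusted p = 0.00203, exact binomial test), short of 2-fold (scaled by total counts it was 1.02 and called). Knockdown against control gave -0.52 (adjusted p = 0.117, exact binomial test). A short stretch at the 5′ end of OPTN is shared with CCDC3 on the opposite strand (15, 16, 14 and 16 reads).

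VCP (chromosome 9, 35053928 to 35072668, minus strand), the ATPase, was below its partner in both libraries with the TDP-43 guide, past an adjusted p of 0.05 in 1 of the 2 pairs. It had 139, 107, 94 and 64 reads, or 224, 156, 190 and 132 CPM. The log2 ratio was -0.52 in each knockdown pair: against control -0.90 to -0.15 (adjusted p = 0.0292, exact binomial test) and, with azacytidine in both libraries, -1.01 to -0.05 (adjusted p = 0.118, exact binomial test). The guide-carrying libraries were thus at 69.7% and 69.6% of their partners, and neither pair reached 2-fold. The difference between the ratios was -0.0025 (adjusted p = 1, exact conditional test). Of all tested genes 57.2% had the same sign in both knockdown pairs. Azacytidine gave -0.23 (adjusted p = 0.416) and, with the guide, -0.24 (adjusted p = 0.441), both by exact binomial tests.

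C9orf72 (chromosome 9, 27535640 to 27573866, minus strand) had 78, 95, 53 and 47 reads, or 126, 139, 107 and 97.0 CPM. The intervals of all 4 libraries overlapped (the lowest bound was 71.2 and the highest 169). The largest ratio was -0.51 for combined against knockdown (-1.05 to 0.00, adjusted p = 0.102, exact binomial test). Knockdown against control gave 0.14 with the main scaling and -0.08 when libraries were scaled by total counts.

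Of the lysosomal pair, TMEM106B (chromosome 7, 12211270 to 12243367, plus strand) had 37, 53, 27 and 22 reads, or 59.7, 77.3, 54.6 and 45.4 CPM. Its intervals overlapped in all 4 libraries, and its largest ratio was -0.75 for combined against knockdown (-1.56 to -0.03, adjusted p = 0.0759, exact binomial test). GRN (chromosome 17, 44345246 to 44353106, plus strand) had 11, 13, 7 and 7 reads, or 17.7, 19.0, 14.2 and 14.4 CPM. With so few reads its ratios had intervals as wide as -1.96 to 1.04 (combined against knockdown), so a 2-fold change was not detectable at this depth.

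ATXN2 (chromosome 12, 111443485 to 111599676, minus strand) had 88, 88, 70 and 86 reads, or 142, 128, 142 and 177 CPM. All 4 intervals overlapped. Its largest ratio was 0.47 for combined against knockdown (0.02 to 0.91, adjusted p = 0.0804, exact binomial test), and azacytidine against control gave -0.00094 (-0.48 to 0.47), a sign that turned with scaling by total counts (0.02). ATXN2 overlaps SH2B3 on the opposite strand (12, 13, 13 and 11 reads).

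NEK1 (chromosome 4, 169369704 to 169612632, minus strand) was highest in the knockdown library. It had 86, 124, 63 and 58 reads, or 139, 181, 127 and 120 CPM. Combined against knockdown gave -0.59 (-1.07 to -0.14, adjusted p = 0.023, exact binomial test), short of 2-fold, and genes lower by that p alone made up 25.5% of all tested. Knockdown against control gave 0.38 (-0.03 to 0.80, adjusted p = 0.188, exact binomial test).

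**Figure D2:**
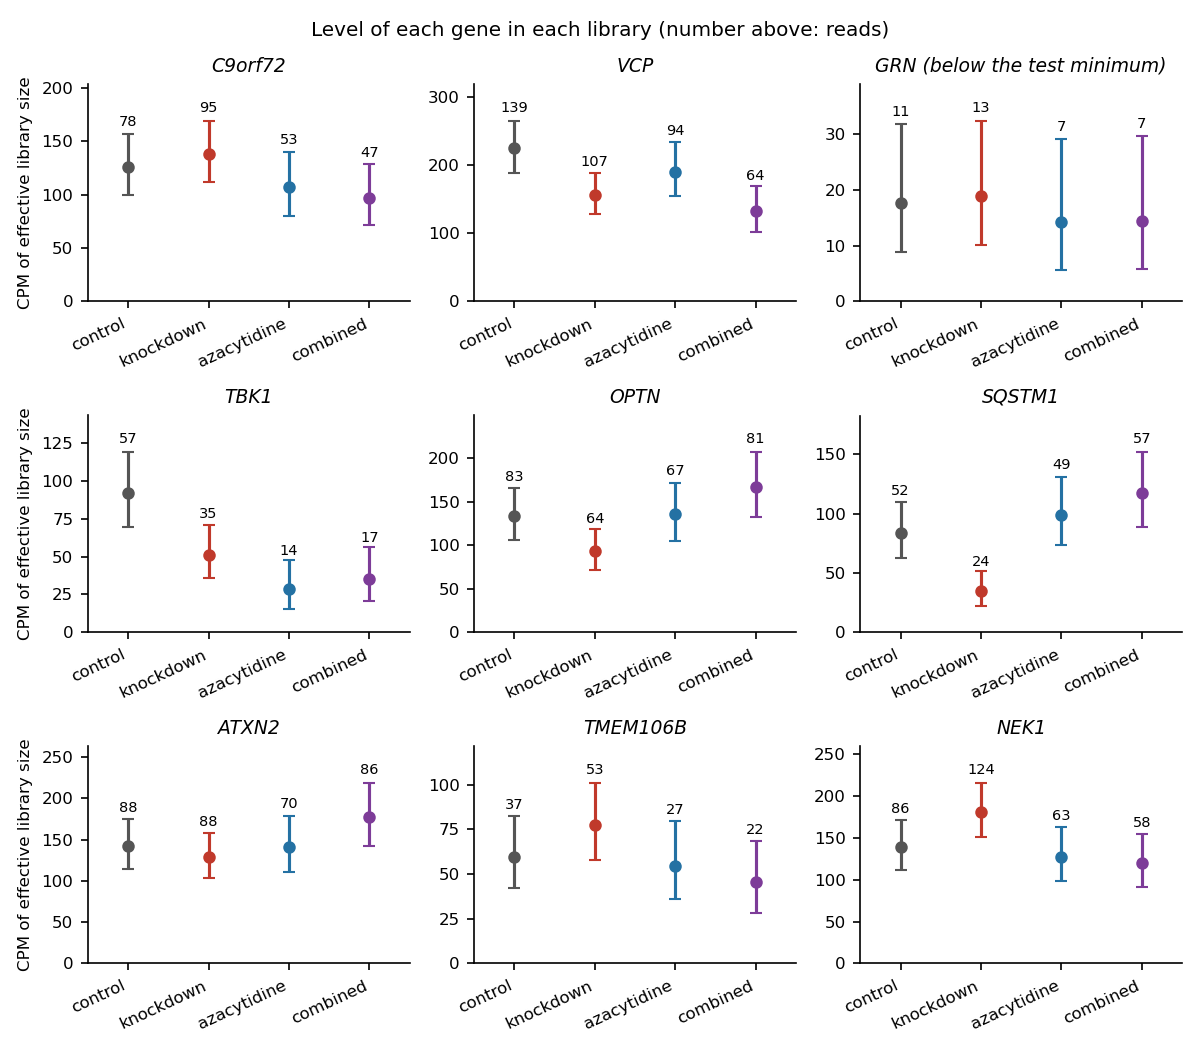
Level of each gene in each library (vertical axis, CPM of effective library size, a separate scale per gene) with 95% exact Poisson intervals; the number above each point is its reads. SQSTM1 is lowest in the knockdown library (24 reads), TBK1 highest in the control (57 reads), and VCP lower in each guide-carrying library than in its partner.

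How much of a gene's reads matched one of its transcripts varied between genes and between libraries. VCP reads mostly matched a transcript, with 12.2% to 22.3% of reads matching no transcript, and 28.6% to 43.8% of its transcript reads were full length. NEK1 reads mostly did not, with 60.3% to 69.0% of reads matching none, and 1, 1, 2.73 and 2 full-length reads in the 4 libraries. ATXN2 had 77.3% without a transcript in the control, 37.5% in the knockdown, 61.4% in the azacytidine and 46.5% in the combined library, so its transcript reads rose from 20 in the control to 55 in the knockdown while its gene reads stayed at 88. Over transcript reads alone, a setting chosen after seeing the data, ATXN2 was called higher in knockdown against control (log2 ratio 1.34, adjusted p = 0.00964, exact binomial test). OPTN had 57.8%, 51.6%, 20.9% and 32.1% without a transcript, lowest in the drug-treated libraries. Over all reads the share without a transcript was 36.1%, 41.5%, 31.9% and 39.6%.

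**Figure D3:**
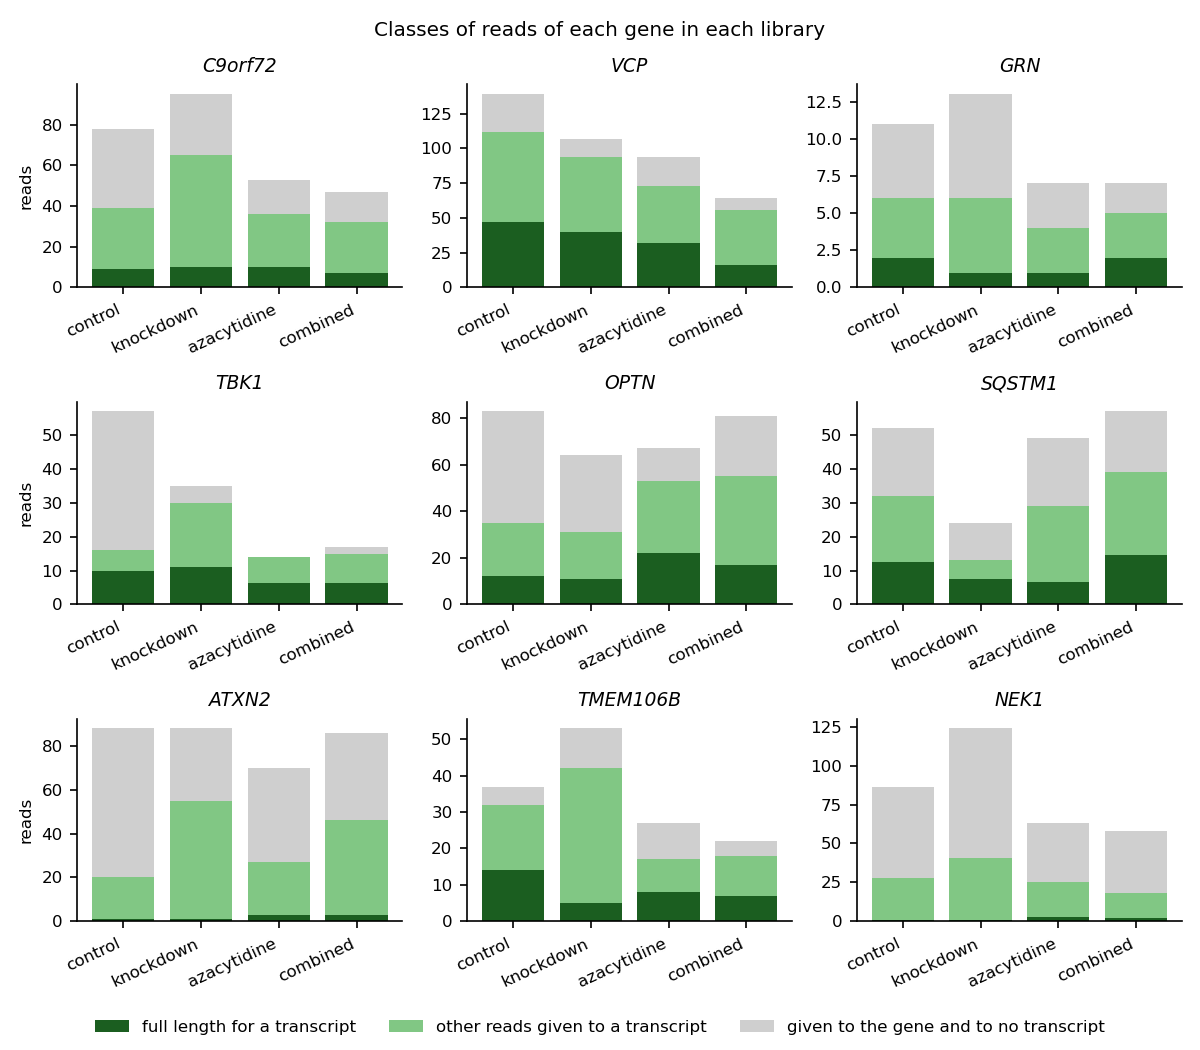
Reads of each gene in each library (vertical axis, a separate scale per gene) split into full-length reads, other reads given to a transcript and reads given to no transcript. TBK1 has 41 of 57 control reads in the last class and at most 5 in any other library, and ATXN2 68 of 88 in the control against 33 of 88 in the knockdown.

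Transcript reads of C9orf72 went mostly to transcripts that begin at exon 1b, downstream of the repeat in the first window printed above. Transcripts starting there (exon between 27573431 and 27573494) took 30 of 39 reads in the control, 55 of 65 in the knockdown, 32 of 36 in the azacytidine and 28 of 32 in the combined library. Those starting at exon 1a (27573709 to 27573866), whose first intron holds the repeat, took the other 9, 10, 4 and 4 reads, or 23.1% (Wilson interval 12.6% to 38.3%), 15.4%, 11.1% and 12.5%. The share was highest in the control, all 4 intervals overlapped, and no pair passed the threshold (azacytidine against control -12.0 points, adjusted p = 0.71, Fisher's exact test). Calls on first exons, grouped after values were seen, made up 8.04%, 4.37%, 6.24% and 8.47% of 6366 groups in the 4 pairs (knockdown against control, combined against azacytidine, azacytidine against control, combined against knockdown). The leading transcript was ENST00000380003.8, of 11 exons, with 26.4, 52.0, 28.4 and 25.6 reads. Its exon 1a counterpart ENST00000619707.5 had 8.13, 7.86, 3.66 and 2.61 reads. Estimated reads need not be whole, since the authors' counts share out a read among the transcripts it fits. Reads were grouped by the first exon of the transcript they were given to, not by where each read began. Full-length reads made up 15.4% to 27.8% of C9orf72 transcript reads in the 4 libraries.

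SQSTM1 transcripts with reads have first exons at 4 places. Reads were again grouped by transcript, and 24.1% to 53.8% of SQSTM1 transcript reads were full length. The first exon at 179806373 to 179806591, over the first SQSTM1 window, took 6 of 32, 2 of 13, 7 of 29 and 8 of 39 transcript reads, in the same order of libraries. The exon at 179820905, where transcription begins in the last window, is that of ENST00000389805.9 and took 7, 4, 12 and 8. An exon at 179822485 to 179823053, that of ENST00000360718.5 alone, took 7, 1, 5 and 9. That transcript had 0 uniquely assigned reads in each library, and 1.60, 0.47, 0.59 and 0.65 full-length reads. A further first exon, unannotated, at 179807032 to 179807123, overlaps no exon of the annotation the authors extended and begins inside the transcribed bases of the second window printed above, so RefSeq has a start there. It took 12, 6, 5 and 15 reads, 37.5%, 46.2%, 17.2% and 38.5%. None of the 4 places passed the threshold in a pair (for the unannotated exon, azacytidine against control -20.3 points, adjusted p = 0.432, and combined against azacytidine 21.2 points, adjusted p = 0.439, both Fisher's exact tests).

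Of 5 unannotated transcripts of the 9 genes, 3 belong to SQSTM1 and 2 to TBK1. BambuTx4605 and BambuTx7595 use the unannotated SQSTM1 exon and its intron at 179807124 to 179811573. BambuTx4605 has 9 exons and 5.98, 1.27, 3.58 and 7.58 reads, and BambuTx7595 has 2 exons and 6, 5, 1 and 7 reads. BambuTx4604 joins annotated introns in a new combination (5.94, 1.27, 7.10 and 7.58 reads). The TBK1 transcripts BambuTx6397 (1.28, 4.47, 0 and 0 reads) and BambuTx6398 (2.56, 3.14, 0 and 0 reads) hold 21 exons each and no new intron, and both had reads only in the libraries without azacytidine, at 4.47 reads or fewer. Unannotated transcripts took 6.88%, 3.98%, 4.32% and 7.75% of the transcript reads of the 9 genes, beside 7.08%, 6.72%, 7.97% and 8.97% over all genes.

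An exon in the 5′ untranslated region of OPTN was called in azacytidine against control alone. The exon of 152 bases at 13108138 to 13108289 lies before the start codon in GENCODE release 29. Transcripts holding it took 5 of 35 transcript reads in the control and 14 of 31 in the knockdown library. They took 24 of 53 in the azacytidine and 25 of 55 in the combined library. That is 14.3% (6.26% to 29.4%) in the control against 45.2%, 45.3% and 45.5%, so the control lay below 3 libraries with nearly equal shares. Azacytidine against control differed by 31.0 points (adjusted p = 0.0463, Fisher's exact test) and knockdown against control by 30.9 points (adjusted p = 0.0883, Fisher's exact test). Internal exons, compared after values were seen, were called in 5.71% and 6.33% of 11544 exons in these pairs, and in 3.62% (combined against azacytidine) and 6.96% (combined against knockdown) in the others, where OPTN had no call. The transcript without the exon, ENST00000378757.6, held 85.8% in the control and 56.1%, 54.9% and 55.4% in the other libraries, and ENST00000378747.8, which has it, had 6.60%, 21.1%, 28.9% and 26.1%. Neither transcript passed the threshold in a pair (lowest adjusted p = 0.0676, Fisher's exact test). No other internal exon of a member gave a call in any pair, so calls among member exons are not above the background. Of the 83 control reads of OPTN, 48 matched no transcript, so the control share rests on the other 35.

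**Figure D4:**
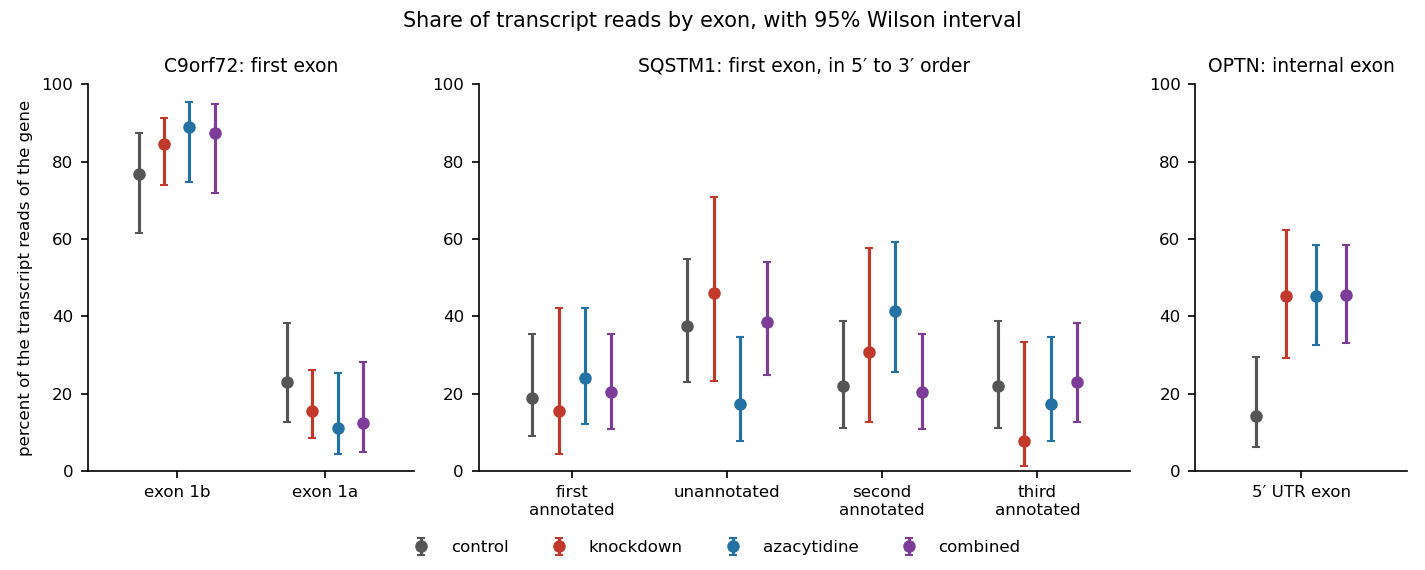
Share of a gene's transcript reads (vertical axis, percent) by library, with 95% Wilson intervals. Counted are reads given to transcripts that begin at each first exon of C9orf72 and SQSTM1 or hold the 152-base exon of OPTN. Exon 1a of C9orf72 lies between 11.1% and 23.1%, the unannotated SQSTM1 exon between 17.2% and 46.2%, and the OPTN exon at 14.3% in the control against 45.2% to 45.5% elsewhere.

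Among 23 transcripts of 7 members tested in 4 pairs (92 tests), 1 pair passed: ENST00000687643.1 of NEK1 had 5.96 of 28 transcript reads in the control and 0.33 of 41 in the knockdown (-22.2 points, adjusted p = 0.0459, Fisher's exact test). It had 4.05 reads in the azacytidine and 0 in the combined library. Its uniquely assigned reads numbered 1, 0, 2 and 0 in the 4 libraries, and its full-length reads 0 in each. Most of its estimated reads were thus shared out among transcripts they fit. Transcript calls made up 7%, 4.43%, 5.79% and 7.35% of 15446 transcripts in the 4 pairs, so 1 call is not above the background. No member transcript was called in both knockdown pairs (0.725% of all) or both azacytidine pairs (1.12% of all). The leading VCP transcript, ENST00000358901.11, held 74.9%, 76.6%, 84.2% and 60.2% of VCP transcript reads, lowest in the combined library (against azacytidine -22.9 points, adjusted p = 0.0755, Fisher's exact test). TMEM106B was read mostly as ENST00000396668.8 (79.6%, 96.0%, 84.9% and 78.9%). All transcript reads of GRN went to ENST00000053867.8 (6, 6, 4 and 5). ATXN2 reads were spread over 15 transcripts, none above 28.5% in any library.

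Genes that work with the 9 were read from lists. Of 35 other ALS and FTD genes, 26 identifiers were tested. Knockdown against control called 1 higher and 0 lower, and combined against azacytidine 0 and 2 (8.34% and 8.45% of all genes called). Azacytidine against control called 1 and 2, and combined against knockdown 0 and 2 (16.6% and 26.4% of all genes called). The share called in this list was below that of all genes in each pair. HNRNPA1, an RNA-binding protein, was lower with the guide in both backgrounds, with 149, 84, 96 and 43 reads (log2 ratios -0.97, adjusted p = 1.33e-05, and -1.12, adjusted p = 0.000307, exact binomial tests). It has near-identical pseudogene copies, so its count is uncertain. ERBB4, a receptor for neuregulins, had 80 and 89 reads in the untreated libraries against 0 and 6 in the treated ones, and was called lower in both azacytidine pairs. FIG4, a phosphoinositide phosphatase named after its values were seen, had 40, 127, 67 and 31 reads and was called in all 4 pairs, higher in the knockdown (log2 ratio 1.51, adjusted p = 2.30e-08, exact binomial test) and lower in combined against azacytidine (-1.07, adjusted p = 0.00499, exact binomial test). KIF5A and DCTN1 were above their partner with the guide in both pairs, each passing the adjusted p in 1 of them and 2-fold in neither.

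Of 44 autophagy genes 36 were tested. In knockdown against control 9 were higher and 0 lower at an adjusted p under 0.05 (16.4% and 3.73% of all genes), and 1 was called, WDR41, the partner of C9orf72, named after its values were seen. WDR41 had 87, 230, 94 and 70 reads, high in the knockdown library alone (log2 ratio 1.25, adjusted p = 3.57e-11, exact binomial test). In combined against azacytidine 2 were higher and 2 lower by that p, beside 15% of all genes in either direction. The call there was ATG12, lower, with 75, 83, 59 and 13 reads and named after its values were seen. UVRAG rose with the guide in both pairs (34, 73, 48 and 77 reads, log2 ratios 0.95 and 0.70). ATG5 was below its partner in both (99, 76, 62 and 31 reads, log2 ratios -0.52 and -0.96). With azacytidine WDR45, a lipid-binding autophagy protein, was called higher in both pairs (18, 10, 32 and 20 reads). ATG9A and KEAP1 were above their partners in both azacytidine pairs, and ATG4C, ATG5 and ATG14 below theirs.

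Of 44 lysosome genes 31 were tested. Azacytidine against control gave 4 called higher and 0 lower, and combined against knockdown 6 higher and 0 lower. Of all genes 6.65% and 9.56% were called higher in these pairs, and 16.6% and 26.4% in either direction. CLN3, a lysosomal membrane protein (12, 11, 38 and 28 reads), TMEM175, a lysosomal ion channel (41, 47, 74 and 85), and ATP6AP1, an accessory subunit of the proton pump (22, 19, 38 and 60), were called higher in both. The median of the list was 0.25 and 0.18 in these pairs, beside 0.05 and -0.09 for all genes. NPC1, the cholesterol exporter, was below its partner in both (79, 74, 35 and 29 reads, log2 ratio -0.84 in each).

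Of 30 VCP cofactors 24 were tested, and knockdown against control and azacytidine against control gave 0 calls, beside 8.34% and 16.6% of all genes. In knockdown against control 4 were higher at an adjusted p under 0.05 by the exact binomial test, beside 16.4% of all genes. Combined against azacytidine gave 2 calls, beside 8.45% of all genes, both higher. They were NPLOC4, which recruits VCP to ubiquitin (62, 85, 42 and 93 reads), and ASPSCR1 (26, 25, 23 and 48 reads), the second named after its values were seen. Combined against knockdown called 3 cofactors higher and 3 lower, beside 26.4% of all genes in either direction. Of 15 partners of TBK1 and optineurin 10 were tested. Knockdown against control called 1 higher and 0 lower, and combined against azacytidine 0 and 1 (8.34% and 8.45% of all genes called). Azacytidine against control called 1 and 0, and combined against knockdown 2 and 0 (16.6% and 26.4% of all genes called). MYO6, the motor that optineurin binds, was above its partner with the guide in both pairs (141, 227, 96 and 150 reads, log2 ratios 0.54 and 0.67), and TBC1D17 was called higher in both azacytidine pairs (24, 30, 43 and 64 reads).

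Of 25 stress granule genes, the list closest to ATXN2, 24 were tested. G3BP1, a nucleator of stress granules, had 264, 310, 131 and 77 reads, and G3BP2 112, 134, 53 and 25. Both fell with azacytidine, with log2 ratios of -0.68 and -0.75 without the guide and -1.50 and -1.90 with it. Azacytidine against control called 1 higher and 0 lower, and combined against knockdown 0 and 5 (16.6% and 26.4% of all genes called). Knockdown against control called 1 higher and 0 lower, and combined against azacytidine 1 and 4 (8.34% and 8.45% of all genes called). Among those 4 were DDX6 (28, 45, 30 and 11 reads) and LSM12 (29, 38, 28 and 1), named after their values were seen. PUM2 and UBAP2L rose with the guide in both pairs, short of 2-fold (log2 ratios 0.80 and 0.70, and 0.66 and 0.56). ATXN2L, the paralog of ATXN2, named after its values were seen, had 36, 123, 142 and 51 reads and was called higher in knockdown against control and in azacytidine against control, and lower in combined against azacytidine. Of 10 NIMA-related kinases 4 were tested, and NEK6 had 60, 200, 18 and 7 reads, called higher in the knockdown and lower in both azacytidine pairs.

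The genes most like each member over the 4 libraries were found by the Euclidean distance of centred log2 levels among 8098 tested genes with a symbol. MOB4, PSMD6 and EIF3M were nearest to C9orf72 (distances 0.04 to 0.05), and UBE2V1, HSP90AA1 and COX18 to VCP (0.04 to 0.07). WDR46, ZCCHC17 and DDX41 were nearest to SQSTM1 (0.16 to 0.18), and WDR46 was likewise low in the knockdown library (25, 10, 24 and 26 reads). AIF1L, SLC25A37 and TSPAN11 were nearest to TBK1 (0.12 to 0.25). FBXO42, SLC44A2 and RASSF4 were nearest to OPTN, CIPC, OGFOD1 and LARS1 to ATXN2, PTK2, GPR85 and ZNF92 to TMEM106B, and PIGK, GOLGA2 and ABHD13 to NEK1. The measure is a description over 4 points.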

How the data were processed

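RNA was read as full-length complementary DNA on a PacBio instrument (Iso-Seq), with the MarathonRT reverse transcriptase in first-strand synthesis, per the labels' protocols. Reads were aligned with minimap2 to hg38, per the file headers, and Bambu, which finds unannotated transcripts, is named as the annotation's source. Settings are not given in the sources used here. The authors deposited estimated counts per gene and per transcript, made by assigning aligned reads to genes and transcripts, with full-length and uniquely assigned counts. Every gene count was even to within 0.00031, so 2 counts were treated as 1 read and halved. Why they are even is not stated.

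Effective library sizes used TMM (edgeR 4.0.16). Log2 ratios used a pseudocount of 0.5. Transcripts, first exons and internal exons were compared by Fisher's exact test of rounded reads, with Benjamini-Hochberg adjustment over all features tested and calls from 10 percentage points. First exons, internal exons, the difference between knockdown ratios and the sums of transcript reads were added after seeing the data. Exons matched GENCODE release 29 in 99.96% of 166654 shared transcripts. Symbols came from the gene identifiers. DESeq2 1.42.0 gave alternative size factors and an additive model. The tests were tested on simulated data. Named were all 9 genes, their transcripts with at least 10% and 5 reads in a library, every unannotated one with reads, up to 3 genes higher and 3 lower per list and treatment, and 3 nearest genes. The members and lists were chosen with earlier results of these data known.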

Additional observations from a re-analysis of the deposited data

Results flagged for a closer look

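SQSTM1 is listed because the effect of the TDP-43 guide differed between neurons without and with azacytidine. The log2 ratio was -1.24 without the drug (52 reads in the control, 24 in the knockdown) and 0.24 with it (49 in the azacytidine, 57 in the combined library). The difference was 1.49 (adjusted p = 0.013, exact conditional test over 8145 genes, of which 10.6% passed). The test compares the reads of 4 libraries, 1 per group, so the spread between cultures is not in it.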

How the results depend on the processing

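No paired analysis was possible because each group has 1 library, so the replicate number pairs no samples. Leaving out a library was not possible for the same reason. Of 276 alternative values of the gene ratios, 31 changed sign, whether or not a call changed with it. Among values that kept their sign, 6 became calls and 7 lost one. The other 232 kept their direction and their side of the threshold, except that GRN, untested, was counted there wherever its value lay within its main interval. Some of those GRN values turned sign, as in knockdown against control (0.087, and -0.14 by total counts). The turned signs listed below leave GRN out. Of 208 alternative transcript shares, 149 stayed within the counting interval. Where a value changed, the cause was not tested. The edgeR additive model gave SQSTM1 a log2 change of -0.45 with the guide (adjusted p = 0.763) and 0.94 with azacytidine (adjusted p = 0.162), and DESeq2 gave -0.53 (adjusted p = 1) and 0.98 (adjusted p = 0.661). For TBK1 with azacytidine both gave -1.12 (adjusted p = 0.142 by edgeR and 0.677 by DESeq2).

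Scaling by total counts moved the all-gene median of the log2 ratio in knockdown against control from 0.18 to -0.04 and in combined against knockdown from -0.09 to 0.09, and DESeq2 size factors moved the first to 0.08. By total counts, 2 members were called in each of these pairs, TBK1 and OPTN joining SQSTM1, and C9orf72 (knockdown against control) was -0.084 and ATXN2 (azacytidine against control) 0.024. DESeq2 size factors gave OPTN -0.039 and a pseudocount of 2 gave ATXN2 0.0052, both in azacytidine against control. Of the 79 genes called with the guide in both backgrounds 64.6% were higher. That share was 32.9% of 82 by total counts and 57.0% of 79 by DESeq2 size factors. The share higher among genes called with azacytidine was 29.9% of 798 and 39.0% of 810 by total counts, and among the 44 crosswise calls 75% and 56.2%.

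The counts over all genes moved with the settings. Genes called with the guide in both backgrounds numbered 79, and 211 with counts not halved, 11 over uniquely assigned reads, 7 over full-length reads, 11 over transcript reads, 3 by the additive edgeR model and 9 by the additive DESeq2 model. With azacytidine they numbered 798, and 1403, 129, 18 and 325 under the first 4 of these, and 274 by DESeq2. Crosswise they numbered 44, and 126, 3, 0 and 2. The last 3 tables tested 2982, 958 and 6003 genes in place of 8145. Transcripts called in both backgrounds numbered 112 with the guide, 173 with azacytidine and 83 crosswise. These counts were 467, 753 and 282 with counts not halved, 4, 11 and 3 with uniquely assigned reads, and 3, 9 and 0 with full-length reads.

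Uniquely assigned reads left 3 members to test. They gave 1 call in combined against azacytidine (ATXN2, 1.60), 0 in azacytidine against control, 1 in knockdown against control (VCP, -2.30, from 52 and 11 reads) and 1 in combined against knockdown (OPTN, 1.18, adjusted p = 0.0367, exact binomial test). SQSTM1 was not tested in combined against knockdown, at 1.33 over these and 1.19 over full-length reads. Signs turned in knockdown against control for C9orf72 (-0.22), TBK1 (1.05), ATXN2 (1.34), TMEM106B (-1.51) and NEK1 (-0.32). They turned in combined against azacytidine for TMEM106B (0.41) and NEK1 (0.043), and in azacytidine against control for SQSTM1 (-0.34), ATXN2 (0.29) and NEK1 (0.063). In combined against knockdown they turned for VCP (1.33), TMEM106B (1.21) and NEK1 (0.42). Full-length reads left 1 member to test and 0 calls in every pair. There signs turned for TBK1 (0.21) and TMEM106B (-1.32) in knockdown against control, OPTN (-0.042) and TMEM106B (0.14) in combined against azacytidine, C9orf72 (0.041) and SQSTM1 (-0.95) in azacytidine against control, and TMEM106B (0.59) in combined against knockdown. Transcript reads tested 7 members, with 0 calls in azacytidine against control and 2 in combined against knockdown. Signs turned for TBK1 (0.79) and ATXN2 (1.34) in knockdown against control and TMEM106B (0.24) in combined against azacytidine. In azacytidine against control they turned for C9orf72 (0.089), TBK1 (0.017), ATXN2 (0.63) and NEK1 (0.043).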
